A study of Mus musculus with 48 samples.

Results

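Transcripts of B cells and of their antibody products were followed in liver and visceral white adipose tissue of mice. The 9 genes are Igj, Igkc, Igha, Ighg2b, Ighm, Cd79a, Cd79b, Ms4a1 and Mzb1, taken by symbol from a count table of 30055 symbols. All 9 were found, each as 1 symbol, and all 9 passed the filter on low counts in both tissues. The rows were selected by name, but the 9 genes were chosen with earlier results of these data known.

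B cells carry an antibody in their outer membrane as a receptor, and that receptor signals through the partner proteins encoded by Cd79a and Cd79b. Ms4a1 encodes CD20, a surface protein of mature B cells that is lost when they become plasma cells. Plasma cells secrete antibody in large amounts, so a few of them can supply most of the immunoglobulin transcripts of a tissue. Igkc encodes the constant part of the kappa light chain, and Ighm, Igha and Ighg2b encode the constant parts of the heavy chains of IgM, IgA and IgG2b. The J chain, from Igj (Jchain in newer annotations), links IgM or IgA units into larger complexes. Mzb1 encodes a protein of the endoplasmic reticulum that helps assemble and secrete antibody. In liver, IgA-secreting cells and their product are part of the exchange between gut, blood and bile, and visceral fat holds B cells within small lymphoid clusters. These mRNAs come from whole tissue, so fewer cells of a type and less RNA per cell cannot be told apart.

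C57BL6/J mice from Charles River, 8 weeks old at the start, received standard Teklad chow (the regular diet, RD) or a Research Diets high-fat chow (HFD) in which fat supplies 45% of the calories. Tissues came from females and males after 2 or 12 weeks on either diet. Both tissues were taken from each combination of sex, diet and time, which makes 16 groups of 3 libraries (48 in all), and no group carries an added allele or drug. The labels do not say that the 3 libraries of a group are separate animals, so the p-values measure the spread between these libraries, which may be technical. The mice of the 12 weeks groups were older when sampled. The labels do not say whether both times came from the same cohort. Time on the diet, age and any difference of cohort therefore cannot be told apart. Libraries are named below by the numbers in their labels.

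The constant genes of the heavy chains lie on the minus strand of chromosome 12 of GRCm38: Igha at chr12:113254830-113260236, Ighg2b at chr12:113302965-113307933 and Ighm at chr12:113418558-113422730. Igkc is a single exon at chr6:70726435-70726966 on the plus strand. Igj spans chr5:88519809-88527891, Cd79a chr7:24897381-24902197, Cd79b chr11:106311341-106314762 and Ms4a1 chr19:11249675-11266241. Of the 31-base words in their annotated transcripts, Mzb1 shares 55.1% with SPATA24, Cd79a 12.2% with Gm32220 and Ighg2b 9.29% with Ighg2c, Ighg3 and Ighg1, so the split of reads at these genes is uncertain. Igj, Igkc, Igha, Ighm and Cd79b share none.

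Each antibody chain also carries a variable (V) segment, and the table counts 170 heavy-chain (Ighv), 103 kappa (Igkv) and 3 lambda (Iglv) segments. A pair of segments, Ighv11-2 and Igkv14-126, led both chains in every male fat library at 2 weeks, and Ighv2-9-1 and Igkv1-110 led most often in fat at 12 weeks. Their second coding exons are shown from GRCm38, 5′ to 3′, because these segments led the libraries described below. That of Igkv14-126 is whole (298 bases), and of the others, which are 307 (Ighv11-2), 304 (Ighv2-9-1) and 313 bases long (Igkv1-110), 300 bases are shown. Capitals mark the codons for tyrosine, tyrosine or phenylalanine, and cysteine that close the segment's framework before the binding loop. The stretches are chr12:114048248-114048547 (minus strand) for Ighv11-2, chr6:67896345-67896642 (plus strand) for Igkv14-126, chr12:113769854-113770153 (minus strand) for Ighv2-9-1 and chr6:68270955-68271254 (plus strand) for Igkv1-110.
Ighv11-2: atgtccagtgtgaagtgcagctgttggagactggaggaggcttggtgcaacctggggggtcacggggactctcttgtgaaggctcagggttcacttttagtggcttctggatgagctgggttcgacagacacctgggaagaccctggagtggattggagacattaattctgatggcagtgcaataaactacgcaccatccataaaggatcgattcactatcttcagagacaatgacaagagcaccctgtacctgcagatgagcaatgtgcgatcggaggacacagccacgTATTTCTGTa
Igkv14-126: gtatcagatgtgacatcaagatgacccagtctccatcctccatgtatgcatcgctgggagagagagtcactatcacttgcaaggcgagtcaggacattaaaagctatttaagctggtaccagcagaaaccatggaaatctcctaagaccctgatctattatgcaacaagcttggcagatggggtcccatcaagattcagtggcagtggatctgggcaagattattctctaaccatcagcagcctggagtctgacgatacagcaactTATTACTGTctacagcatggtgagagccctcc
Ighv2-9-1: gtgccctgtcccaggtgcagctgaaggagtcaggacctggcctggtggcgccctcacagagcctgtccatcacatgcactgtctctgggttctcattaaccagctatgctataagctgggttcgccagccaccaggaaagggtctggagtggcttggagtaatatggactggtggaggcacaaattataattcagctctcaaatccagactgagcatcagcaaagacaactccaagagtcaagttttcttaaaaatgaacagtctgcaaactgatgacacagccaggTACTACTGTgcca
Igkv1-110: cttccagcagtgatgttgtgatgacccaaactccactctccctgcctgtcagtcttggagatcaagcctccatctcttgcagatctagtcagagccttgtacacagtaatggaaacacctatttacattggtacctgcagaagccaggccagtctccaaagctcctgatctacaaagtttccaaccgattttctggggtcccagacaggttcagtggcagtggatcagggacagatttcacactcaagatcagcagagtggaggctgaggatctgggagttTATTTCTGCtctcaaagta

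Library totals were 50.9 to 80.1 M expected counts in liver (median 69.9 M) and 44.7 to 105.4 M in fat (median 63.2 M). Levels are CPM, counts scaled to the library, on TMM-scaled library sizes within a tissue, and changes are log2 fold changes ± SE from edgeR, and a gene counts as called when its p, adjusted by Benjamini-Hochberg over all genes tested, is under 0.05. Percentages of all genes called refer to these edgeR calls. No such share is given for DESeq2, for an unadjusted p or for groups whose libraries do not overlap. Overlap between groups of 3 libraries is therefore a description of the values. Summed hepatocyte markers reached at least 57005 CPM in every liver library and at most 1188 CPM in fat, where summed adipocyte markers were at least 2211 CPM. Some fat libraries stood apart. Epididymis markers summed to 2810 to 8764 CPM in male RD libraries 6 and 8 and male HFD library 13 at 2 weeks and to 3680 to 6014 CPM in all 3 male RD libraries at 12 weeks, against at most 11.8 CPM in every other fat library. Female HFD library 1 at 2 weeks had 4521 CPM of epithelial and reproductive tract markers.

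The question of the sex comparisons is whether female and male tissue hold different amounts of B cell transcripts. In liver Igj, Igkc and Igha were higher in females on both diets and at both times, Ighg2b was higher at 2 weeks, and Ighm was called in none of the 4 comparisons. Igj in RD females at 2 weeks was 17.6, 9.41 and 14.4 CPM in libraries 1, 2 and 4, and in RD males 0.911, 0.872 and 1.56 CPM in libraries 6, 7 and 8. On HFD at 2 weeks it was 7.97, 8.34 and 10.2 CPM in females and 0.677, 0.681 and 0.663 CPM in males. Every female library lay above every male library, by 3.63 ± 0.37 on RD (edgeR, adjusted p = 8.9e-07) and 3.71 ± 0.38 on HFD (adjusted p = 9.3e-07). At 12 weeks Igj was 12.4, 9.57 and 22.6 CPM in RD females against 4.41, 6.51 and 3.66 CPM in RD males. On HFD it was 7.68, 11.4 and 4.65 CPM in females against 1.53, 1.19 and 1.28 CPM in males. The sexes again did not overlap on either diet, and the female excess was 1.61 ± 0.33 on RD (adjusted p = 0.0039) and 2.57 ± 0.35 on HFD (adjusted p = 4e-05).

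Igha, the heavy chain of the IgA class that the J chain pairs, had the widest gap between the sexes in liver among the 9 genes. At 2 weeks it was 72.9, 34.2 and 66.1 CPM in RD females against 2.11, 2.26 and 1.94 CPM in RD males. On HFD it was 31.4, 37.5 and 69.9 CPM in females against 0.533, 2.21 and 1.02 CPM in males. The sexes lay far apart on either diet, with differences of 4.78 ± 0.54 (edgeR, adjusted p = 7.7e-06) and 5.20 ± 0.56 (adjusted p = 4.1e-06). At 12 weeks the RD values were 50.3, 39.8 and 103 CPM in females and 13.2, 26.4 and 14.4 CPM in males, and the HFD values 33.8, 51.9 and 20.9 CPM and 2.86, 2.04 and 2.15 CPM. No male library reached a female one, and the differences were 1.84 ± 0.47 on RD (adjusted p = 0.018) and 3.91 ± 0.52 on HFD (adjusted p = 4.3e-05).

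Igkc, which is used by all antibody classes, moved in the same direction. At 2 weeks its mean was 51.6 ± 15.9 CPM (SD, n = 3) in RD females and 5.07 ± 3.36 CPM in RD males, a difference of 3.34 ± 0.44 (edgeR, adjusted p = 4.4e-05). It was 33.8 ± 7.99 against 3.01 ± 0.431 CPM on HFD, a difference of 3.48 ± 0.44 (adjusted p = 3.1e-05). The differences at 12 weeks were 1.57 ± 0.41 on RD (adjusted p = 0.019) and 1.72 ± 0.41 on HFD (adjusted p = 0.0073), and the sexes overlapped in none of the 4 comparisons. Ighg2b was 2.95 to 5.78 CPM in the 6 female libraries at 2 weeks and 0.0288 to 0.969 CPM in the 6 male ones. It was higher in females by 2.45 ± 0.57 on RD (adjusted p = 0.0099) and 4.25 ± 0.64 on HFD (adjusted p = 0.00017), the latter against male libraries with 2.12, 44.4 and 5.51 counts. At 12 weeks its differences of 0.90 ± 0.53 on RD (adjusted p = 0.33) and 0.94 ± 0.55 on HFD (adjusted p = 0.26) did not pass.

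**Figure D1:**
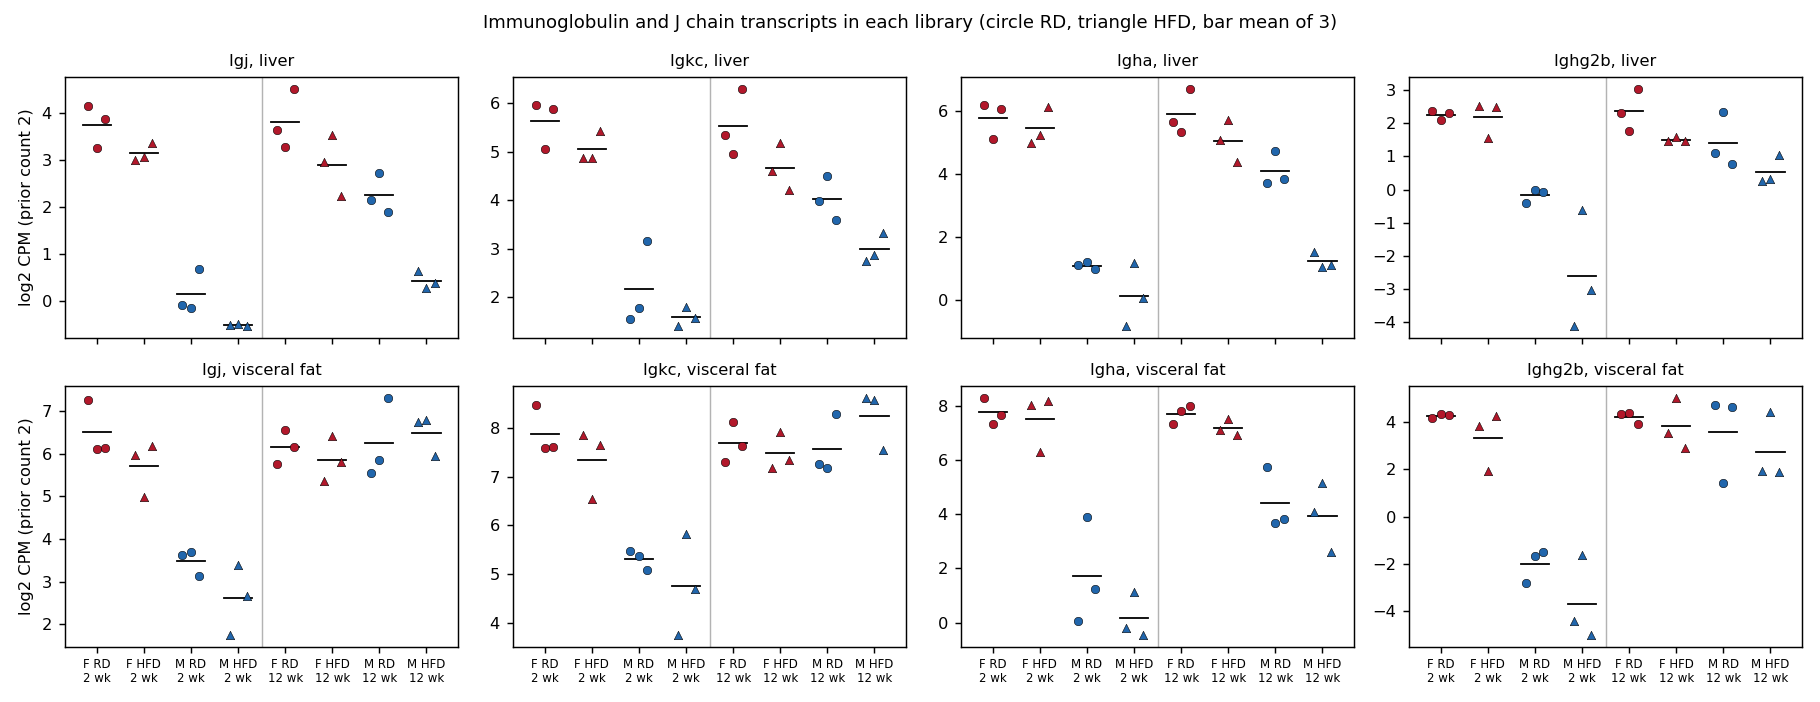
Log2 CPM (prior count 2) of Igj, Igkc, Igha and Ighg2b in each library, liver above and visceral fat below, with the 8 conditions of sex, diet and weeks on the diet along the x axis. Red is female, blue male, circles RD, triangles HFD and bars the mean of 3 libraries. At 2 weeks the male libraries lie below the female ones in both tissues, and at 12 weeks the male fat libraries reach the female levels of Igj and Igkc but not of Igha.

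The receptor partners and CD20 were each called in fewer of the 4 comparisons than Igj, Igkc and Igha. Cd79a in RD females at 2 weeks was 2.71, 2.04 and 2.51 CPM against 0.966, 1.32 and 1.41 CPM in RD males, and at 12 weeks 1.10, 1.39 and 1.78 CPM against 0.446, 0.584 and 0.396 CPM. The sexes did not overlap on RD, and females were higher by 0.97 ± 0.28 (edgeR, adjusted p = 0.032) and 1.58 ± 0.29 (adjusted p = 0.0016). On HFD Cd79a passed at 12 weeks alone, by 1.00 ± 0.29 (adjusted p = 0.023). Ms4a1 was higher in females on RD at both times, 1.83, 1.56 and 1.79 CPM against 0.856, 0.953 and 0.788 CPM at 2 weeks and 0.709, 1.21 and 1.18 CPM against 0.353, 0.385 and 0.396 CPM at 12 weeks. Those differences were 1.00 ± 0.28 (adjusted p = 0.028) and 1.45 ± 0.29 (adjusted p = 0.0033), with no overlap. Cd79b passed on HFD at 12 weeks, where females had 0.814, 0.953 and 1.10 CPM and males 0.418, 0.229 and 0.182 CPM, a difference of 1.77 ± 0.38 (adjusted p = 0.0029). The Cd79a and Ms4a1 calls at 2 weeks on RD were lost without the low-count filter and without any one of female libraries 1 and 4 and male libraries 6, 7 and 8, with adjusted p up to 0.12 and 0.11. The Cd79a call on HFD at 12 weeks was lost without female library 3 or 7 or male library 3 or 4 and in a fit of the 6 libraries alone, with adjusted p up to 0.1.

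In counts, 6 of the 9 genes were higher in female liver on RD at 2 weeks, where 9.81% of all genes tested were called, 5.37% higher and 4.45% lower. On HFD at 2 weeks 4 of 9 were higher (12.4% of all genes called, 6.33% higher and 6.06% lower). On RD at 12 weeks 5 of 9 were (8.81%, 5.63% higher and 3.18% lower), and on HFD at 12 weeks 5 of 9 (17.3%, 9.93% higher and 7.4% lower). None of the 9 was lower. The median female over male change of the 9 genes was 1.81, 0.40, 1.45 and 1.00 in that order, beside 0.06, 0.05, 0.03 and 0.01 over all genes tested. On RD at 12 weeks the count fell to 3 without female library 8, male library 2 or male library 4, or in a fit of the 6 libraries alone, when the Igkc and Igha calls were lost. Red cell and platelet markers moved with these comparisons: they summed to 198 to 240 CPM in RD female liver at 2 weeks and 658 to 995 CPM in males, and 5 of 7 were lower in females there, 5 on RD at 12 weeks and 1 in each HFD comparison. Of 14 T cell markers, females had 2 higher on either diet at 2 weeks and 1 on RD at 12 weeks, while 2 were lower on HFD at 12 weeks. NK cell markers were higher for 2, 0, 4 and 5 of 7 genes in the order used above, and macrophage markers for 0, 0, 4 and 9 of 10. Their part in the B cell result was not tested.

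Visceral fat at 2 weeks had the same 4 secreted genes higher in females. Igj was 153, 69.0 and 70.4 CPM in RD females against 12.2, 12.9 and 8.76 CPM in RD males, and 62.2, 31.5 and 72.3 CPM in HFD females against 3.35, 10.5 and 6.31 CPM in HFD males. No male library reached a female library on the same diet, and the differences were 3.11 ± 0.52 (edgeR, adjusted p = 0.0032) and 3.04 ± 0.52 (adjusted p = 0.0043). Igkc was 353, 192 and 194 CPM against 44.5, 41.5 and 33.8 CPM on RD, and 233, 92.6 and 201 CPM against 13.4, 56.6 and 25.6 CPM on HFD. It too separated the sexes fully, by 2.62 ± 0.49 (adjusted p = 0.0066) and 2.46 ± 0.49 (adjusted p = 0.011).

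Igha and Ighg2b encode class-switched heavy chains, those that replace IgM after a B cell has been stimulated, and both were higher in female fat at 2 weeks. Igha was 316, 160 and 204 CPM in RD females and 259, 79.0 and 291 CPM in HFD females. In males it was 1.00, 15.0 and 2.34 CPM on RD and 0.834, 2.14 and 0.701 CPM on HFD. The female excess was 5.22 ± 0.95 on RD (edgeR, adjusted p = 0.0054) and 7.42 ± 1.06 on HFD (adjusted p = 0.00098). Ighg2b was 17.9, 20 and 19.5 CPM in RD females and 14.0, 3.75 and 19.1 CPM in HFD females. In RD males it was 0.111, 0.284 and 0.319 CPM, and the HFD males held 1.06, 20.3 and 0.419 expected counts, so the size of the HFD change depends on very few counts. Its differences were 6.28 ± 1.15 (adjusted p = 0.0056) and 6.87 ± 1.21 (adjusted p = 0.0052). Ighg2c, a related IgG heavy chain gene that was not among the 9, was also higher in female fat, 18.9 against 0.345 CPM on RD and 10.1 against 0.114 CPM on HFD.

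On RD at 2 weeks 4 of the 9 genes were higher in female fat and Ighm was lower, where 4.28% of all genes were called (1.94% higher and 2.34% lower), and on HFD 4 were higher, where 3.8% were called (2% higher). The median change of the 9 genes was 1.47 and 1.20, beside 0.0048 and -0.003 over all genes. These calls were made with the reproductive tract libraries included. Without female HFD library 1 the HFD differences of Igj, Igkc, Igha and Ighg2b were 2.96, 2.21, 7.24 and 6.78, and without male HFD library 13 they were 3.54, 3.19, 8.11 and 10.37, all 4 called in both cases. Without male RD library 6 the RD count was 4, since Ighm (-1.75, adjusted p = 0.054) missed the threshold, and without library 8 it was 5. In a fit of the 6 HFD libraries alone none of the 4 passed, with adjusted p of 0.16, 0.31, 0.065 and 0.26, and in the same fit on RD Igha alone was lost (adjusted p = 0.052). Red cell and platelet markers were 651 to 1041 CPM in RD female fat and 2318 to 3492 CPM in males, and Ccl19, a chemokine of lymphoid stroma, was lower in females by 2.13 ± 0.50 on RD (edgeR, adjusted p = 0.023). The part of either in the antibody result was not tested.

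In fat at 12 weeks fewer of the 9 genes were called between the sexes. On RD Igha was 160, 226 and 256 CPM in females against 53.3, 12.9 and 14.1 CPM in males, still without overlap and higher in females by 3.00 ± 0.85 (edgeR, adjusted p = 0.037). That call was lost without any one of 5 of the 6 libraries, female 5, 7 and 8 and male 3 and 4, and without the low-count filter, with adjusted p up to 0.13. Ighm went the other way and is described further on. So 1 of 9 genes was higher and 1 lower, where 10.6% of all genes were called (4.45% higher and 6.16% lower). The male libraries of that comparison all held epididymis RNA, so the comparison without it could not be made. On HFD 0 of 9 were called (2.85% of all genes; 1 had an unadjusted p under 0.05 and DESeq2 called 1). Igha there was 140, 182 and 121 CPM in females and 17.0, 35.8 and 5.98 CPM in males, a difference of 2.91 ± 0.85 (adjusted p = 0.078).

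The time comparisons ask how the same sex and diet differ between 2 and 12 weeks. Male fat on HFD had the largest number of changed genes of the fat time comparisons, 6 of 9, all higher at 12 weeks, where 12.1% of all genes were called (5.94% higher). Igj went from 3.35, 10.5 and 6.31 CPM to 106, 111 and 61.4 CPM, and Igkc from 13.4, 56.6 and 25.6 CPM to 394, 381 and 188 CPM. The 12 weeks libraries were all above the 2 weeks libraries, by 3.79 ± 0.54 for Igj (edgeR, adjusted p = 0.00025) and 3.33 ± 0.51 for Igkc (adjusted p = 0.00044). Igha rose by 4.00 ± 0.91 (adjusted p = 0.0096) to 17.0, 35.8 and 5.98 CPM. Ighg2b rose by 6.53 ± 1.20 (adjusted p = 0.0023) to 3.77, 21.7 and 3.63 CPM, from the few counts given above. Ighm rose by 2.02 ± 0.39 (adjusted p = 0.0035), and Mzb1, for antibody assembly, went from 0.134, 0.700 and 0.626 CPM to 2.50, 2.45 and 1.37 CPM, by 2.11 ± 0.57 (adjusted p = 0.022). The Mzb1 call was lost without library 2 or 3 at 12 weeks or library 12 at 2 weeks, with adjusted p up to 0.094. The 3 other genes did not pass: Cd79a was 1.03 to 1.65 CPM at 2 weeks and 1.52 to 2.35 CPM at 12 weeks.

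Other genes of the lineage moved in the same libraries. Of 19 other B cell genes 6 rose, among them the kinase gene Btk by 1.60 ± 0.20 (edgeR, adjusted p = 8.5e-05), the inhibitory receptor gene Cd22 by 1.82 ± 0.41 (adjusted p = 0.0081) and Cd72 by 2.03 ± 0.47 (adjusted p = 0.0099), and none fell. Of 10 other plasma cell genes 3 rose, Slamf7 by 2.61 ± 0.27 (adjusted p = 1.5e-05), Sdc1 (CD138) by 1.49 ± 0.36 (adjusted p = 0.014) and Prdm1 (Blimp-1) by 1.52 ± 0.46 (adjusted p = 0.039). The median change was 0.47 and 0.48 over these lists and -0.05 over all genes. Slamf7, Btk, Cd72 and Sdc1 are also made by other cells, and 6 of 10 macrophage markers rose, from 1747 to 1929 CPM in sum to 3539 to 4762 CPM. Red cell and platelet markers went from 3592 to 4600 CPM to 947 to 1697 CPM, 5 of 7 lower. What part these have in the antibody genes was not tested. Without HFD library 13 at 2 weeks, the 1 with epididymis RNA, all 6 calls were made again, with Igj at 4.29 and Igkc at 4.07.

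On RD in male fat 0 of 9 were called, where 0% of all 18325 genes tested were. Igj was 12.2, 12.9 and 8.76 CPM at 2 weeks and 47.0, 57.4 and 159 CPM at 12 weeks, without overlap, a difference of 2.96 ± 0.52 (edgeR, adjusted p = 0.086). Of the 9 genes, 6 had an unadjusted p under 0.05 and DESeq2 called 4, and without RD library 3 at 12 weeks edgeR called 1. The 0% is edgeR's share after adjustment and does not apply to the unadjusted and DESeq2 counts. Female fat did not follow: on RD 0 of 9 were called (0% of all genes, 0 with an unadjusted p under 0.05, 0 by DESeq2) and on HFD Ighm alone was called (1.51% of all genes). Igj was 69.0 to 153 CPM in RD females at 2 weeks and 54.4 to 94.3 CPM at 12 weeks.

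The difference of the sexes between the times was then tested itself, a comparison added after these values were seen. In fat on HFD the female over male ratio was lower at 12 than at 2 weeks for Igj by 3.66 ± 0.70 (edgeR, adjusted p = 0.035) and for Igkc by 3.27 ± 0.67 (adjusted p = 0.048), so 2 of 9 genes passed, where 0.235% of all genes did. Leaving out 1 library gave 0 to 3 calls, and 0 for 10 of the 12 libraries. On RD the difference for Igj was -3.37 ± 0.70 (adjusted p = 0.26), and 0 of 9 passed (0% of all genes, 4 with an unadjusted p under 0.05, 3 by DESeq2).

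Liver on HFD in males changed in 2 directions between the times, with 3 of 9 genes higher and 3 lower, where 17.1% of all genes were called (7.71% higher and 9.4% lower). Antibody genes rose: Igkc from 2.62, 3.47 and 2.94 to 6.69, 7.33 and 10.1 CPM (1.41 ± 0.42, edgeR, adjusted p = 0.026), Ighg2b by 2.54 ± 0.62 (adjusted p = 0.0084) and Ighm from 5.4, 5.77 and 5.75 to 20.3, 13.2 and 8.33 CPM (1.31 ± 0.38, adjusted p = 0.022). Genes of the B cell surface fell. Cd79b was 1.41, 1.69 and 1.13 CPM at 2 weeks and 0.418, 0.229 and 0.182 CPM at 12 weeks, lower by 2.33 ± 0.38 (adjusted p = 0.00032). Cd79a fell by 1.32 ± 0.29 (adjusted p = 0.0041) from 1.04, 1.25 and 1.05 CPM to 0.547, 0.457 and 0.324 CPM, and Ms4a1 by 1.01 ± 0.29 (adjusted p = 0.02). The 3 libraries of one time did not overlap with those of the other for Igkc, Ighm, Cd79a and Cd79b, whereas Ms4a1 was 0.663 to 1.21 CPM and then 0.345 to 0.676 CPM. In a fit of the compared groups alone 2 of the 6 passed, and without library 13 at 2 weeks 3 did. Igkc was also lost without library 12 or 14 at 2 weeks or 3 or 4 at 12 weeks, Ighm without 12 or 14 at 2 weeks or 2 at 12 weeks, and Ms4a1 without 3 or 4 at 12 weeks.

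Other lists moved there too. Of 19 other B cell genes 8 fell and none rose, led by Bank1, a signalling adaptor, at 4.32 ± 0.41 lower (edgeR, adjusted p = 2.2e-06), with Cd72, Cd22 and Btk lower by 1.40 to 1.57. Among the other constant genes Ighd, the heavy chain of the naive B cell's IgD, fell by 1.80 ± 0.31 (adjusted p = 0.00051) and Ighg2c rose by 2.22 ± 0.59 (adjusted p = 0.014). Of 9 other plasma cell genes 3 fell, Irf4 by 2.03 ± 0.52 (adjusted p = 0.011), Sdc1 by 0.61 ± 0.15 (adjusted p = 0.01) and Fkbp11 by 0.84 ± 0.24 (adjusted p = 0.021), and 1 rose, Eaf2 by 2.09 ± 0.43 (adjusted p = 0.0023). Macrophage markers fell for 9 of 10 genes and red cell and platelet markers for 5 of 7. Their part in the B cell result was not tested.

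On RD, male liver had 2 of 9 genes higher at 12 weeks, where 0.233% of all genes were called (0.12% higher). Igj went from 0.911, 0.872 and 1.56 to 4.41, 6.51 and 3.66 CPM (2.12 ± 0.35, edgeR, adjusted p = 0.012) and Igha from 2.11, 2.26 and 1.94 to 13.2, 26.4 and 14.4 CPM (3.09 ± 0.50, adjusted p = 0.012). Neither gene overlapped between the times. Both calls were lost without library 6 at 2 weeks or library 3 at 12 weeks, with adjusted p up to 0.088, Igha was also lost without library 8 at 2 weeks, and DESeq2 called 5 of the 9. In female liver 0 of 9 were called on RD (0% of all genes, 4 with an unadjusted p under 0.05, 0 by DESeq2) and on HFD (0.0189% of all genes, 3 with an unadjusted p under 0.05, 0 by DESeq2). Igha in female liver was 34.2 to 72.9 CPM on RD at 2 weeks and 39.8 to 103 CPM at 12 weeks. The sex difference of liver differed between the times for Ighg2b on HFD, by -3.31 ± 0.82 (adjusted p = 0.036), 1 of 9 genes where 2.76% of all genes passed, and that call was lost in 11 of 16 alternative settings, 9 of which left out 1 library each. On RD 0 of 9 passed (0% of all genes, 3 with an unadjusted p under 0.05, 2 by DESeq2).

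**Figure D2:**
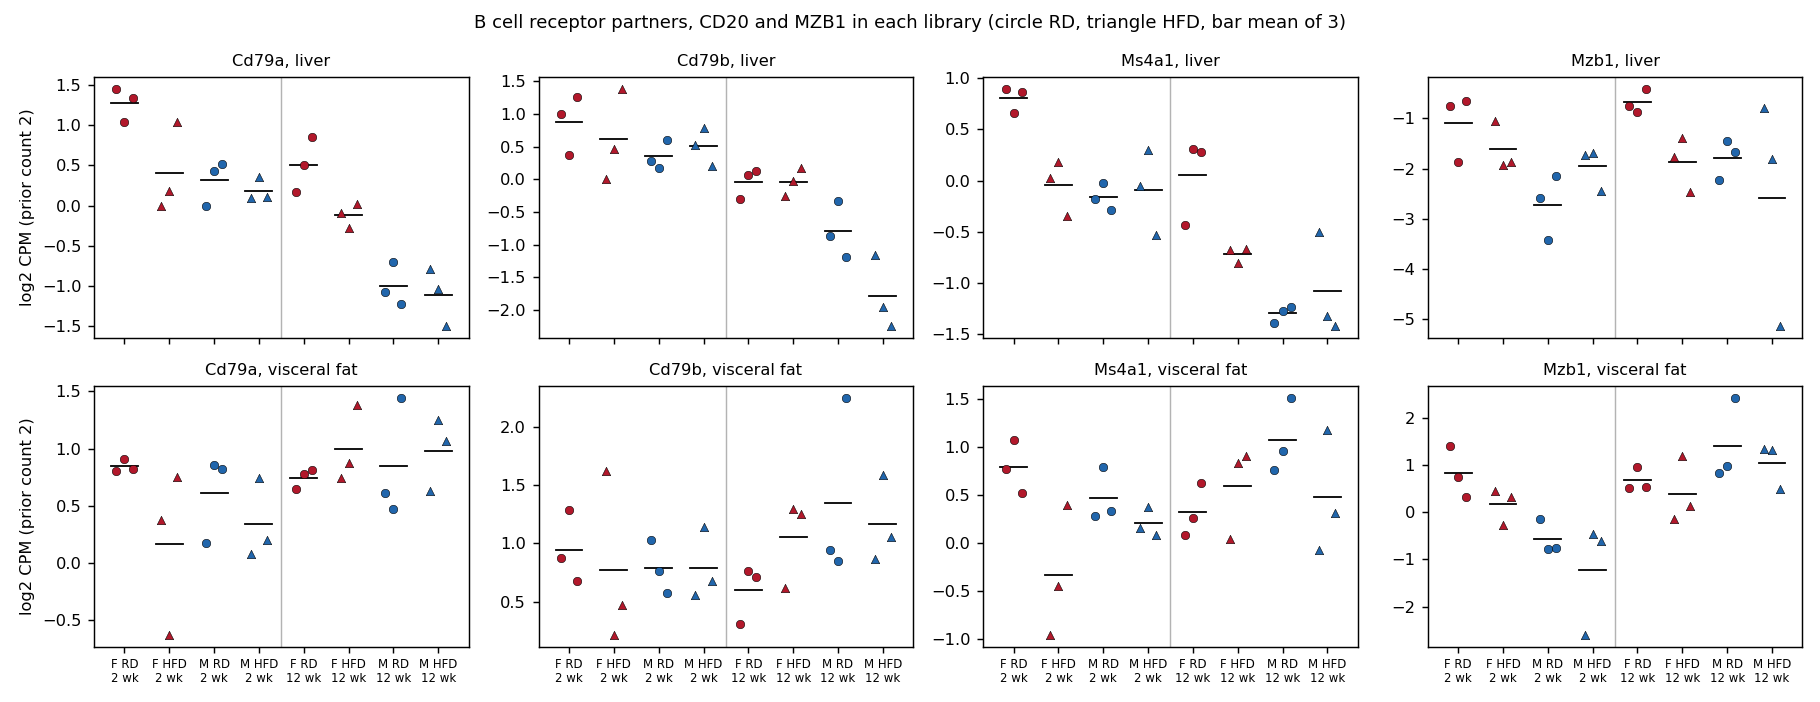
Log2 CPM (prior count 2) of Cd79a, Cd79b, Ms4a1 and Mzb1 in each library, liver above and visceral fat below, with the 8 conditions along the x axis. Red is female, blue male, circles RD, triangles HFD and bars the mean of 3 libraries. In liver the male libraries at 12 weeks are the lowest for Cd79a and Cd79b, and in fat Mzb1 is 0.134 to 0.873 CPM in males at 2 weeks.

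The diet comparisons ask what HFD did within a sex and time, and few of the 9 genes passed. In liver Igj and Igha were lower on HFD in males at 12 weeks, 2 of 9 where 1.12% of all genes were called (0.918% lower). Igj was 4.41, 6.51 and 3.66 CPM on RD and 1.53, 1.19 and 1.28 CPM on HFD, a fall of 1.87 ± 0.35 (edgeR, adjusted p = 0.013). Igha was 13.2, 26.4 and 14.4 CPM on RD and 2.86, 2.04 and 2.15 CPM on HFD, a fall of 2.93 ± 0.50 (adjusted p = 0.0098). The diets did not overlap for either gene. Both calls were lost in a fit of the 6 libraries alone, whether without or with the replicate number as a block (with it, adjusted p = 0.28 for Igj and 0.22 for Igha), and without HFD library 3. Igj was also lost without RD library 3. Of the other B cell genes 1 of 19, Bank1, was lower, and 4 of 10 macrophage markers were, whose part was not tested.

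In the other liver diet comparisons 0 of 9 were called. These were females at 2 weeks (0.252% of all genes, 3 members with an unadjusted p under 0.05, DESeq2 1), males at 2 weeks (0.34%, 2 and 1) and females at 12 weeks (0.00629%, 4 and 0). Ighm came nearest at 2 weeks: it was 35.1, 17.0 and 17.8 CPM in RD females and 5.09, 6.41 and 8.75 CPM in HFD females, without overlap (-1.79 ± 0.38, edgeR, adjusted p = 0.056). In males it was 13.6, 15.3 and 27.0 CPM on RD and 5.4, 5.77 and 5.75 CPM on HFD, again without overlap (-1.72, adjusted p = 0.058). The sex by diet interaction called 0 of 9 in liver at 2 and at 12 weeks (0% of all genes at both, 2 and 2 members with an unadjusted p under 0.05, 0 by DESeq2). In fat it also called 0 at 2 weeks (0%, 0 with an unadjusted p under 0.05) and 0 at 12 weeks (1.25%, 1), with 0 by DESeq2 at both.

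**Figure D3:**
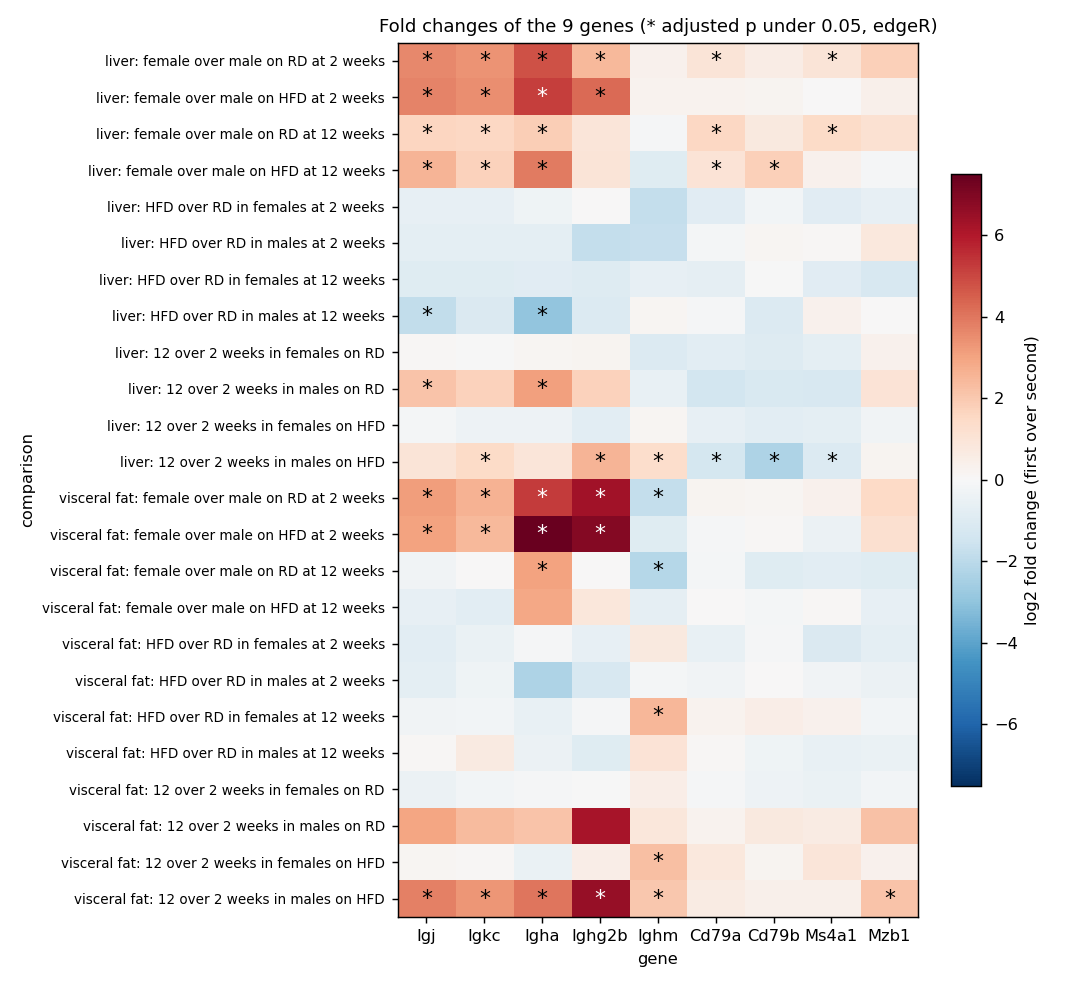
Log2 fold change of the 9 genes (columns) in 24 comparisons of sex, diet and time (rows), first named group over second, with red higher and blue lower. An asterisk marks an edgeR adjusted p under 0.05. The sex comparisons at 2 weeks and the time comparisons in HFD males hold most of the asterisks.

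Ighm in fat behaved unlike the other antibody genes. Females on RD at 12 weeks had 146, 215 and 97.0 CPM in libraries 5, 7 and 8, and females on HFD 783, 1074 and 719 CPM in libraries 3, 6 and 7. Each HFD library lay far above each RD library, and Ighm was higher by 2.49 ± 0.40 (edgeR, adjusted p = 0.0023). It was the 1 of 9 genes called there, where 2.08% of all genes were, and it was called in each of the 10 alternative settings. In the same libraries Igkc was 157, 279 and 198 CPM on RD and 145, 240 and 163 CPM on HFD, and Cd79a was 1.53 to 1.73 CPM and 1.64 to 2.57 CPM.

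Males at 12 weeks had 693, 611 and 712 CPM of Ighm on RD and 1505, 1472 and 1154 CPM on HFD. These also did not overlap, but the difference of 1.03 ± 0.38 missed the threshold (edgeR, adjusted p = 0.051). So 0 of 9 genes were called (1 with an unadjusted p under 0.05, 1 by DESeq2), where 28.2% of all genes were. Epididymis markers summed to 3680 to 6014 CPM in these RD libraries and 1.90 to 8.19 CPM in the HFD ones. Diet and epididymis RNA therefore cannot be told apart in this comparison. At 2 weeks the values were 93.5, 144 and 91.7 CPM in RD females and 69.8, 226 and 243 CPM in HFD females, and 377, 411 and 329 CPM in RD males and 440, 190 and 387 CPM in HFD males. The diets overlapped in both sexes, and 0 of 9 genes were called in females (0.235% of all genes, 1 with an unadjusted p under 0.05, 0 by DESeq2) or in males (0%, 1 and 0).

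Ighm was lower in females than in males on RD, by 1.76 ± 0.39 at 2 weeks (edgeR, adjusted p = 0.018) and by 2.14 ± 0.40 at 12 weeks (adjusted p = 0.0054), the opposite direction to Igha in the same libraries. The 2 weeks call was lost without female library 1, female library 4 or male library 6. At 12 weeks all the RD male libraries held epididymis RNA, so sex and that RNA cannot be told apart there. On HFD the differences of -0.92 at 2 weeks (adjusted p = 0.18) and -0.68 ± 0.38 at 12 weeks (adjusted p = 0.47) did not pass. From 2 to 12 weeks on HFD Ighm rose in both sexes, by 2.26 ± 0.40 in females (adjusted p = 0.0076) and by 2.02 ± 0.39 in males. The call in females was lost in a fit of its 6 libraries alone.

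By group mean the order in fat was males on HFD at 12 weeks (1377 ± 194 CPM, SD, n = 3), females on HFD at 12 weeks (859 ± 190), males on RD at 12 weeks (672 ± 53.9), males on RD at 2 weeks (372 ± 40.8), males on HFD at 2 weeks (339 ± 132), females on HFD at 2 weeks (180 ± 95.5), females on RD at 12 weeks (153 ± 59.2) and females on RD at 2 weeks (110 ± 29.7). Each of the upper 3 groups lay wholly above the next. From the fourth group down, each group's libraries overlapped with those of the next. Lymphoid stromal markers summed to 3.54, 39.1 and 4.85 CPM in HFD females and 15.9 to 65.9 CPM in HFD males at 12 weeks, the groups with most Ighm, and to 82.6 to 139 CPM in RD males at 12 weeks.

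**Figure D4:**
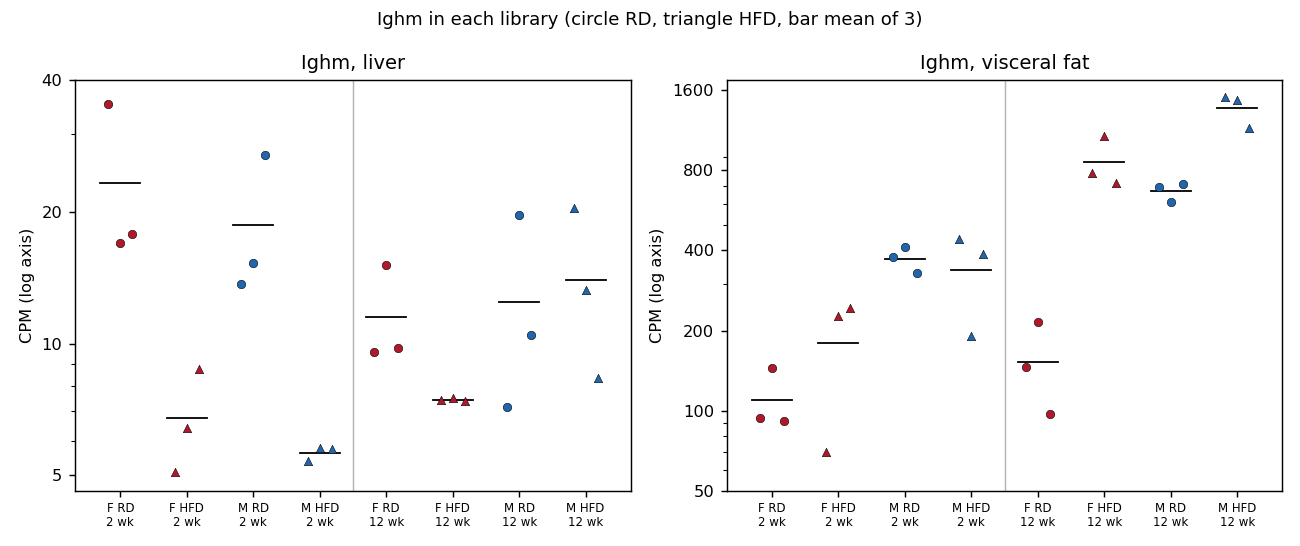
Ighm in each library in CPM on a log axis, liver on the left and visceral fat on the right, with the 8 conditions along the x axis. Red is female, blue male, circles RD, triangles HFD and bars the mean of 3 libraries. In fat the HFD females at 12 weeks (719 to 1074 CPM) lie above the RD females (97.0 to 215 CPM), and in liver no library passes 35.1 CPM.

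Heavy-chain messages also hold a V segment, so Ighv counts were set beside Ighm counts, as a description without a test. In female fat at 2 weeks there were 0.463 to 0.923 Ighv counts for each Ighm count on RD and 0.174 to 0.725 on HFD. In the 6 male libraries at 2 weeks there were 0.011 to 0.138. Summed Ighv counts in those male libraries were 331 to 1803, beside 13034 to 35083 counts of Ighm. The ratio of Ighm to Igkc counts at 2 weeks was 0.265 to 0.749 in RD females, 0.300 to 2.44 in HFD females and 3.36 to 32.8 in the males. In HFD females at 12 weeks, where Ighm was higher, there were 0.074 to 0.097 Ighv counts for each Ighm count, against 0.419 to 0.811 in RD females. All 12 male fat libraries had at most 0.138. Liver showed a like difference. Its RD males had 0.106 to 0.128 at 2 weeks and 0.400 to 0.710 at 12 weeks. Its HFD males had 0.142 to 0.300 at 2 weeks and 0.117 to 0.250 at 12 weeks. Female liver libraries had 0.589 to 2.70. The ratio of Ighm to Igkc in liver on RD at 2 weeks was 3.02 to 4.72 in males and 0.303 to 0.561 in females. Male liver libraries at 2 weeks held only 53.2 to 208 Ighv counts. Heavy chains of all classes share the Ighv segments.

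The V segments that led each library differed between the sexes and times in fat. They were picked after their values were seen and are described without a test. In the 6 male libraries at 2 weeks Ighv11-2 led the heavy-chain segments in all 6 and held 32.0%, 37.1% and 50.9% of Ighv counts on RD and 41.1%, 42.0% and 44.5% on HFD. Igkv14-126 led the kappa segments in the same 6 libraries, with 31.3%, 46.1% and 49.0% on RD and 47.4%, 52.2% and 48.2% on HFD. The 95% Wilson intervals, which cover counting error alone, were 28.3 to 35.9% for the lowest Ighv11-2 share and 29.0 to 33.7% for the lowest Igkv14-126 share. Female libraries at 2 weeks were mixed. Library 2 on HFD was led by the same pair at 32.1% and 37.7%, library 2 on RD at 13.1% and 15.2%, and the other 4 had Ighv11-2 at 1.15 to 4.80%.

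At 12 weeks Ighv11-2 was at 2.80 to 10% in males and 0.115 to 2.22% in females and led no library. Igkv14-126 led 1 of the 12, male RD library 4, at 13.6%. Ighv2-9-1 was first in 5 of the 12 libraries, 2 of females and 3 of males, and reached 25.0% in male RD library 3. Igkv1-110 held 19.0%, 46.3% and 55.1% of kappa segment counts in the 3 HFD males, with Wilson intervals of 18.4 to 19.6%, 45.5 to 47.0% and 53.9 to 56.3%. It was 5.41 to 11.8% in RD males. Summed Ighv counts in the HFD males were 4916 to 12633, so the shares rest on more counts there than at 2 weeks.

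In liver 1 of 24 libraries, male RD library 8 at 2 weeks, was led by Ighv11-2 (30.3%, Wilson interval 24.4 to 36.8%) and Igkv14-126 (34.3%, 29.4 to 39.4%). The liver medians were 0.282% and 0.988%. Igkv1-110 was the first kappa segment in 13 of the 24 liver libraries, with a median of 10%. Of the 31-base words of each segment's transcript, Ighv11-2 shares 50.6% with Ighv11-1, Igkv14-126 5.79% with Igkv14-111, Ighv2-9-1 38.6% with others of the Ighv2 family and Igkv1-110 63.6% with others of the Igkv1 family. Reads could be split within these families, so a share may belong partly to a neighbour. The letters shown above are those of the reference strain and hold no changes acquired by these cells.

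**Figure D5:**
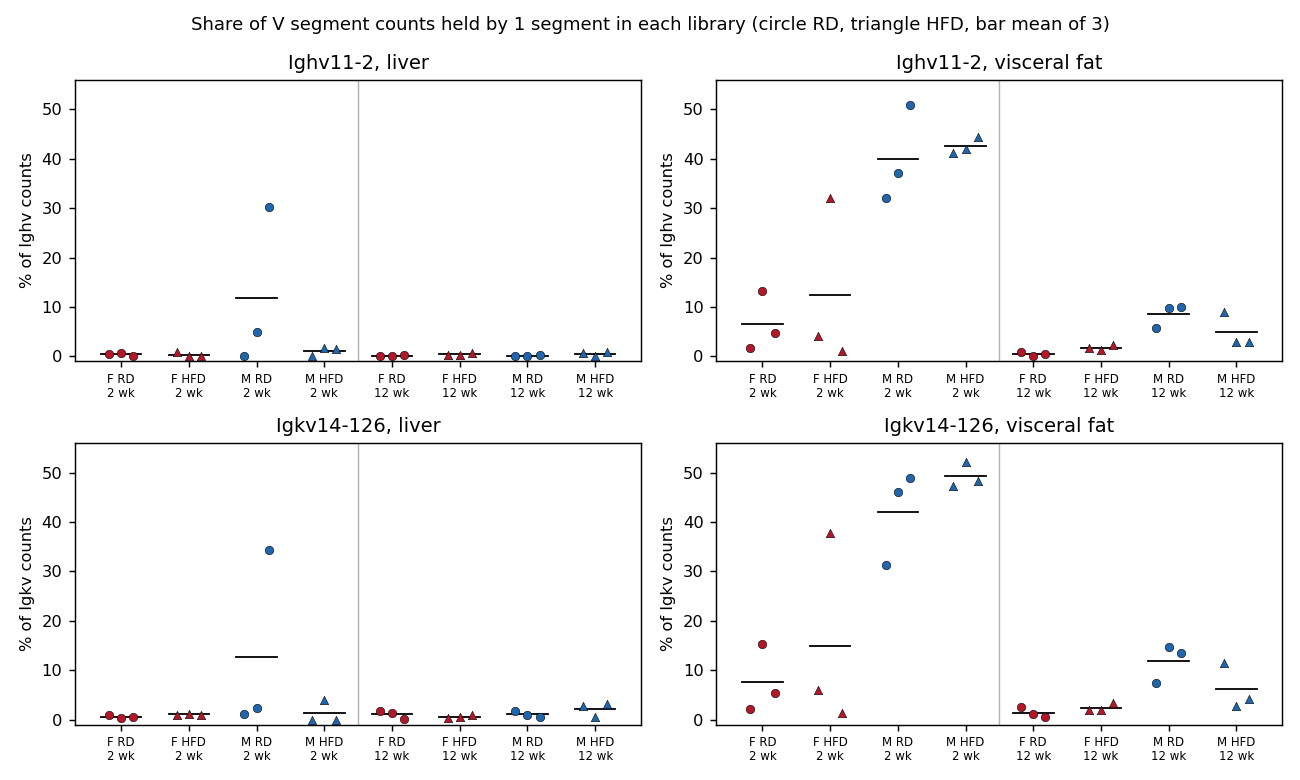
Share of Ighv11-2 among Ighv counts and of Igkv14-126 among Igkv counts, in percent, in each library of liver and visceral fat, with the 8 conditions along the x axis. Red is female, blue male, circles RD and triangles HFD. In fat all 6 male libraries at 2 weeks lie at 31.3% or above for both segments, and at 12 weeks the highest share of either is 14.6%.

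Set against liver over the 8 conditions, on library sizes scaled over all 48 libraries, fat had more of 5 messages of antibody and its assembly and less of Cd79a and Ms4a1. Igj had a median of 8.24 CPM in liver and 41.1 CPM in fat, Igkc 30.3 and 121 CPM and Ighm 13.9 and 263 CPM. For each of the 3 genes, fat was above liver in 24 of 24 same-numbered pairs, by 2.37 ± 0.16, 2.02 ± 0.16 and 3.94 ± 0.16 (edgeR, adjusted p = 4e-16, 6.9e-14 and 5.4e-23). Mzb1 was higher in fat by 1.09 ± 0.23 (adjusted p = 6.6e-05) and Igha by 0.55 ± 0.24 (adjusted p = 0.035). Cd79a was lower by 0.42 ± 0.11 (adjusted p = 0.0011) and Ms4a1 by 0.27 ± 0.12 (adjusted p = 0.039), while Cd79b and Ighg2b did not pass. With 80.4% of all genes called in this comparison, 7 of 9 is close to the background. With the shared library number as a block 5 were called, since Igha (edgeR, adjusted p = 0.11) and Ms4a1 (adjusted p = 0.052) were lost. The labels do not say that this number marks an animal. Of 52 alternatives the Ms4a1 call was lost in 23, DESeq2 and median-of-ratios among them, and the Igha call in 12. The Cd79a call was made in all 52, with changes of -0.46 to -0.36. On sizes scaled within a tissue, liver and fat medians per kb of exon were 0.72 and 1.15 CPM for Cd79a and 0.13 and 0.21 CPM for Ms4a1. The direction for these genes thus depends on whether sizes are scaled over all libraries or within a tissue. The latter do not put the tissues on a shared scale.

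A pair of interactions of tissue with sex and diet were added after these values were seen. On RD at 12 weeks the female over male ratio was lower in fat than in liver for Ighm by 2.01 ± 0.57 (edgeR, adjusted p = 0.028), Cd79a by 1.73 ± 0.46 (adjusted p = 0.019) and Ms4a1 by 2.23 ± 0.48 (adjusted p = 0.0046), 3 of 9 genes where 6.44% of all genes were called. Leaving out 1 library gave 1 to 5 calls: 1 without liver male 4, fat female 5 or fat male 4, and 5 without fat male 2 or fat male 3. All male fat libraries on RD at 12 weeks held epididymis RNA, so sex and that RNA cannot be told apart in fat there. In females at 12 weeks the HFD over RD ratio of Ighm was higher in fat than in liver by 3.09 ± 0.57 (adjusted p = 0.0043), the 1 gene of 9 called, where 0.574% of all genes were. That call was made in every alternative setting tried.

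Scaled by the length of their annotated exons, the genes were ranked within a group. In RD female liver at 2 weeks the medians per kb of exon were 110 CPM for Igkc, 24.8 for Igha, 9.42 for Ighm, 5.74 for Igj, 1.84 for Ighg2b, 1.72 for Cd79a, 1.38 for Cd79b, 0.47 for Mzb1 and 0.29 for Ms4a1. In RD male liver at 2 weeks the first was Ighm at 8.12 CPM per kb, followed by Igkc at 6.37, Cd79a at 0.91, Cd79b at 0.83 and Igha at 0.79. Thus Igha stood second in these females and, by median, below both receptor partners in these males. Its male libraries (0.73 to 0.85) overlapped with those of Cd79a (0.66 to 0.97) and Cd79b (0.77 to 1.04). In HFD males at 2 weeks Igha was also below, at 0.38 against 0.72 and 0.99. At 12 weeks male Igha was above both, 5.39 against 0.31 and 0.36 on RD and 0.81 against 0.31 and 0.16 on HFD. In male fat on RD at 2 weeks Ighm was at 200 CPM per kb and Igkc at 78.0, and in female fat Igkc was at 365, Igha at 76.4 and Ighm at 49.6.

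Across the 24 libraries of a tissue, which share depth, sex and diet groups, the genes fell into sets by the Pearson r of log2 CPM, given as a description. In liver Igj followed Igkc (r = 0.98) and Igha (0.98), and Cd79a followed Ms4a1 (0.90) and Cd79b (0.89). The sets were less alike, with 0.41 between Igj and Cd79a, and Ighm had 0.16 with Igj. In fat Igj and Igkc had 0.99, Mzb1 and Igj 0.91 and Igj and Igha 0.76, while Ighm had 0.04 with Igkc and -0.36 with Igha. The genes outside the immunoglobulin loci most like Igkc over the liver libraries were Atp6v0d2 (0.90), Slc22a26 (0.90), Sept6 (0.89), Prlr (0.89) and Ugt1a1 (0.89), and most like Cd79a were Akr1b3 (0.91), Blk (0.89), Sparc (0.88) and Ccdc80 (0.88). In fat they were Cacna1s (0.83), Ly96 (0.83), Pou2af1 (0.80), Csprs (0.78) and Lst1 (0.78) for Igkc, and Pou2af1 (0.72), Poln (0.70), Fcrla (0.67), Nab1 (0.62) and Arid3b (0.62) for Cd79a. For Ighm in fat, listed after its values were seen, they were Gm9696 (0.95), Calr4 (0.94), Rbm28 (0.93), Lep (0.92) and Rab38 (0.91). For Ighm in liver, listed in the same way, they were Acss2 (0.83), Ccdc24 (0.83), Pmvk (0.82), Acat2 (0.80) and Gja5 (0.80).

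The remaining B lineage lists followed the 9 genes in part. In liver 4 of the 5 tested other constant genes were higher in females on RD at 2 weeks, Ighg2c by 4.97 ± 0.62 (edgeR, adjusted p = 1.6e-05), Ighg1 by 2.66 ± 0.71 (adjusted p = 0.021), the lambda gene Iglc2 by 2.11 ± 0.46 (adjusted p = 0.0053) and Ighd by 1.25 ± 0.29 (adjusted p = 0.0099). On HFD at 2 weeks 3 of 5 were higher, on RD at 12 weeks 1 and on HFD at 12 weeks 3, and none was lower. Of the 19 other B cell genes 3, 0, 7 and 6 were higher in that order and none lower. Pou2af1, a transcriptional coactivator of B cells, was higher by 1.69 ± 0.48 on RD at 2 weeks (adjusted p = 0.029), Cd72 by 1.10 ± 0.24 on RD at 12 weeks (adjusted p = 0.0062) and Bank1 by 3.96 ± 0.41 on HFD at 12 weeks (adjusted p = 1.1e-06). The plasma cell list was mixed: Irf4 was higher in female liver by 1.49 ± 0.46 on RD at 2 weeks (adjusted p = 0.046), while Fkbp11 was lower by 1.27 ± 0.25 (adjusted p = 0.002). Pigr, the receptor that carries IgA and IgM into bile, was higher in female liver at 2 weeks by 0.54 ± 0.17 on RD (adjusted p = 0.044) and 0.64 ± 0.17 on HFD (adjusted p = 0.015). In fat 0 of the 19 other B cell genes were called between the sexes at 2 weeks on either diet, and Irf4 was higher in RD females at 12 weeks by 3.90 ± 0.63 (adjusted p = 0.0022).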

How the data were processed

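PolyA stranded RNA libraries of liver and visceral fat, 48 in 16 groups of 3, were compared by sex, diet, time and tissue. The deposited table holds expected counts per gene symbol made by the authors (whole numbers for 0.0936% of its values above 0, within 1e-06), and 36.6% of its values are 0. Kallisto, edgeR, DESeq2 and GRCm38 are named per the submitters' processing notes, with roles and versions not given in the sources used here. Library totals ran from 44.7 to 105.4 M expected counts.

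Expected counts were rounded and fitted with edgeR 4.0.16 in R 4.3.3 (filterByExpr by group, TMM, robust glmQLFit, glmQLFTest), with limma 3.58.1 loaded. Each tissue was fitted alone (24 libraries, 8 groups, 15897 genes in liver and 18325 in fat), and tissue comparisons used all 48 libraries (18800 genes). Calls rest on p-values adjusted by Benjamini-Hochberg over all genes of a comparison, with a threshold of 0.05. The SE is the absolute log2 fold change over the square root of F, an approximation. CPM used TMM-scaled library sizes, and log2 CPM a prior count of 2. There were 29 planned comparisons, and 6 interactions were added after values were seen: sex by time in each tissue and diet, tissue by sex on RD and tissue by diet in females at 12 weeks. The test was checked on simulated data.

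The 9 genes and the lists were chosen with earlier results of these data known. Named beside them are called list genes in comparisons where 1 of the 9 was called, at most 4 a list by smallest p, and the 5 genes with the highest Pearson r to Igkc and to Cd79a in each tissue, to which Ighm and the V segments were added after values were seen. Of the genes that this rule selects, 1 is not reported here. Hepatocyte, adipocyte, epididymis and epithelial lists were also added. Positions and exons came from GENCODE M21 on GRCm38, read with Python 3.11.15 and pandas 2.3.3, and positions were found for all 9 genes. Intervals of shares are Wilson intervals at 95%.

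Alternatives were DESeq2 1.42.0, scaling by median-of-ratios, dropping the low-count filter, the compared groups alone, a replicate block and each library left out in turn. Tissue refits without a library kept the genes and dispersion trend of the full fit. Same-numbered male fat libraries at 12 weeks each correlated best with one another over centred values (r = 0.108, 0.134 and 0.154). These correlations are weak and the candidates few, so they do not establish that the numbers pair the libraries. In the liver of those males (r = -0.112, 0.0505 and 0.127), and in females at 2 weeks, same-numbered libraries did not all correlate best. Between tissues the median r was 0.0268. No duplicate libraries were found.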

Additional observations from a re-analysis of the deposited data

Results flagged for a closer look

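A change of the sex difference between the times was called for 3 results on HFD, in comparisons added after values were seen. In liver the female over male ratio of Ighg2b was lower at 12 weeks than at 2 weeks by 3.31 on the log2 scale (-3.31 ± 0.82, edgeR, adjusted p = 0.036). In fat that of Igj differed by -3.66 ± 0.70 (adjusted p = 0.035) and that of Igkc by -3.27 ± 0.67 (adjusted p = 0.048). Of 16 alternative settings each, the call was lost in 11 for Ighg2b, 11 for Igj and 13 for Igkc.

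The difference between the sexes on RD at 12 weeks differed between the 2 tissues, in an interaction also added after values were seen. The female over male ratio was lower in fat than in liver for Ighm (-2.01 ± 0.57, edgeR, adjusted p = 0.028), Cd79a (-1.73 ± 0.46, adjusted p = 0.019) and Ms4a1 (-2.23 ± 0.48, adjusted p = 0.0046). Ms4a1 was 1.45 in liver, where it was called, and -0.79 in fat, where it was not. Every library of one sex lay above the other in each tissue, in opposite order. Cd79b also separated the sexes in opposite order, with 0.75 in liver and -0.90 in fat, neither of them called. Its difference between the tissues was -1.64 ± 0.55 (edgeR, adjusted p = 0.067) and did not pass. The Ighm and Cd79a calls were lost in 6 and 4 of 15 alternative settings. All male fat libraries of this comparison held epididymis RNA, so sex and that RNA cannot be told apart in fat here.

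The HFD over RD ratio of Ighm in females at 12 weeks was -0.63 in liver and 2.49 in fat, without overlap of the diets in either tissue. The difference, an interaction also added after values were seen, was 3.09 ± 0.57 (edgeR, adjusted p = 0.0043). No cause was tested for any of these.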

How the results depend on the processing

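Of 63 calls of single genes, 32 were made in every alternative tried. Over their 964 alternative values none changed sign, 811 stayed past the threshold and 153 did not. Counts of the 9 genes called moved as follows, and the causes were not tested. The shares of all genes called under these settings are not given. DESeq2 called 1 gene between the diets in liver of females at 2 weeks and 1 of males at 2 weeks, 5 between the times in liver of RD males, 2 for sex by time in liver on RD and 2 on HFD, 1 between the sexes in fat on HFD at 12 weeks, 1 between the diets in fat of males at 12 weeks, 4 between the times in fat of RD males, 3 for sex by time in fat on RD and 4 on HFD, and 5 for tissue by sex. Fits of the compared groups alone, which hold fewer libraries, gave in liver 3 for sex on RD at 12 weeks, 1 for diet in males at 2 weeks and 0 at 12 weeks, 2 for time in HFD males and 0 for sex by time on HFD. In fat they gave 0 for sex on HFD at 2 weeks and 1 at 12 weeks, 1 for diet in males at 12 weeks, 0 for time in HFD females and 0 for sex by time on HFD. A replicate block was fitted on the compared groups alone. For diet in liver of males at 12 weeks that fit gave 0, as did the same groups without the block, so the block itself did not change the count. In fat of those males, where same-numbered libraries correlated best, the fit with the block gave 0 and the one without it 1. In females at 2 weeks it gave 0 in both tissues. Without the low-count filter the count was 0 for sex by time in liver on HFD, 1 for sex in fat on RD at 12 weeks and 1 for sex by time in fat on HFD. Median-of-ratios factors gave 1 for diet in fat of males at 12 weeks and 1 for sex by time in fat on HFD. Leaving out 1 library gave 3 to 5 for sex in liver on RD at 12 weeks, 0 to 1 and 0 to 2 for diet in liver of males at 2 and 12 weeks, 0 to 2 and 3 to 5 for time in liver of RD and HFD males, 0 to 2 for sex by time in liver on HFD, 1 to 2 for sex in fat on RD at 12 weeks, 0 to 1 for time in fat of RD males, 0 to 3 for sex by time in fat on HFD and 1 to 5 for tissue by sex. Depth limits Ighg2b in male fat at 2 weeks and Mzb1 in liver, at most 0.722 CPM, where a difference could go undetected.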
